A study of Mus musculus with 13 samples.

Results

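Female Ecad melanoma lines Ma_1014 and Ma_1039 were set against male Ecad lines Ma_1007 and Ma_1181 by their H3K27ac peak lists. Peaks of these 4 lists on the 19 autosomes were joined wherever they overlapped or touched, which gave 48800 regions. A region was taken as private to a side when both lists of that side held a peak in it and neither list of the other side did. There were 1999 regions private to the female lines (4.10% of all regions) and 2682 private to the male lines (5.50%). Female-private regions lay mostly away from gene starts, and male-private regions more often on them: 16.7% against 37.1% had a transcription start site (TSS) within 1 kb. This contrast was lost without Ma_1181, where the shares were 18.4% and 18.5%, and was smaller without Ma_1007, at 18.1% and 26.2%. Each of these left the male side to a single list. Promoters private to the male lines included the Wnt pathway factors Lef1 and Tcf7, and those private to the female lines included 4 genes of the Hoxb cluster. In lines that had lost E-cadherin, female-private regions were called at 9.80 to 18% in the 3 female lists and at 24.8 and 40.1% in the 2 male lists, a contrast that so few lines cannot carry past the usual threshold. Regions called in all 4 Ecad lists had the same order, at 66.0 to 81.7% against 89.3 and 85.6%.

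H3K27ac is acetylation of lysine on the tail of histone H3. It is laid down by the acetyltransferases p300 and CBP at active promoters and enhancers, and peaks far from a TSS are commonly read as candidate enhancers. In melanocytes such elements are bound by the lineage factors MITF and SOX10, and lines of the same tumour type often differ more at distal elements than at promoters. E-cadherin, encoded by Cdh1, joins epithelial cells and melanocytes to neighbouring keratinocytes and holds β-catenin at the membrane. β-catenin that is free to enter the nucleus activates genes together with TCF and LEF factors.

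The mice of all lines carried an oncogenic, mutated NRAS transgene driven by the tyrosinase promoter (Tyr::NRAS), 1 deleted copy of Cdkn2a (Cdkn2a+/-) and floxed Cdh1 (Cdh1 F/F). Ecad mice had no Cre and so kept Cdh1, and ΔEcad mice carried Tyr::CreA, which deletes Cdh1 in cells of the melanocyte lineage. The ΔEcad lines used for comparison were Ma_1057, Ma_1064 and Ma_1069 (female) and Ma_1062 and Ma_1456 (male). Each line was untreated, came from a tumour and gave 1 list, so sex was compared over 2 lines a side, and what belongs to a single line cannot be told apart from what belongs to its sex beyond that. A peak list also cannot tell a mark carried by few cells from a low level in all of them. The labels name 4 input libraries, 1 for each sex and genotype, and which input served as control for which list is not given in the sources used here. If each group had its own, control and side cannot be told apart. No list comes with its depth.

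The sex labels were checked before the regions were read. The Xist promoter was called in both female lists and neither male list, and those of the Y-linked genes Ddx3y, Uty, Eif2s3y and Kdm5d in both male lists and neither female list. Peaks over the Cdh1 gene covered 8785 bp in Ma_1014, 7656 bp in Ma_1039, 5877 bp in Ma_1007 and 5136 bp in Ma_1181. The Cdh1 promoter itself was called in none of the Ecad lists and in none of the ΔEcad lists. Coverage of Cdh1 was not measured in the ΔEcad lists, so it does not check the genotype labels. Of 8 melanocyte markers (Mitf, Sox10, Pax3, Tyr, Tyrp1, Dct, Pmel and Mlana), 8 promoters were called in Ma_1014, Ma_1039 and Ma_1007 and 7 in Ma_1181, which lacked a Tyrp1 peak. Promoters of keratinocyte, fibroblast, endothelial and leukocyte markers were nearly free of peaks, with at most 1 called for each cell type in any of the 4 lists. Of 4 Schwann cell markers, 3 were called in each female and 2 in each male list. Among all these markers only Cd68 (male side) and Gfap (female side) were private to a side.

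The sequence under the strongest private regions was read from the GRCm38 genome. High-ranked regions whose window held no exon are shown, 2 of the female and 3 of the male side, as 300 bases of the plus strand centred on the summit of the strongest peak. Capitals mark matches, on either strand, to TGACTCA (AP-1), TCACGTG or TCATGTG (MITF), ACAAAG (SOX), GGAATG (TEAD), CTTTGA (TCF/LEF) and AGGTCA (nuclear receptor half-site). The first 2 windows are female-private, at chr6:89272480-89272779 and chr7:118568735-118569034. The other 3 are male-private, at chr7:100181373-100181672, chr4:8913034-8913333 and chr14:122453314-122453613.
Plxna1: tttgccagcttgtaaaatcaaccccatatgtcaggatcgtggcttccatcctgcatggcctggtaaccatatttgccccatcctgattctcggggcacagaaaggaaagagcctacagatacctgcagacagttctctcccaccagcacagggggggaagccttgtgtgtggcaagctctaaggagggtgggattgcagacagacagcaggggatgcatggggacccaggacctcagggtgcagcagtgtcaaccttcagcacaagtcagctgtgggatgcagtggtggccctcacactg
Tmc7: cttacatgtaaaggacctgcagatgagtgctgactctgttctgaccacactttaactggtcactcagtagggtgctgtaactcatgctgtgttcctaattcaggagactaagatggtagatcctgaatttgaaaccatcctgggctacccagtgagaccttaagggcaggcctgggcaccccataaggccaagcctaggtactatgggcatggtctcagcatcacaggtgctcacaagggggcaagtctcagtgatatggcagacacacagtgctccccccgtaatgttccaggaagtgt
Kcne3: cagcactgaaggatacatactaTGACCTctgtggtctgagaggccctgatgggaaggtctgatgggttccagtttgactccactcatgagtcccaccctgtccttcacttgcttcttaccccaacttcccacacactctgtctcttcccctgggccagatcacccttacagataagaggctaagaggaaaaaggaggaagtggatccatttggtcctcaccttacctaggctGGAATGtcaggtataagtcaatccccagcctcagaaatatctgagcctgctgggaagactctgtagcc
Chd7: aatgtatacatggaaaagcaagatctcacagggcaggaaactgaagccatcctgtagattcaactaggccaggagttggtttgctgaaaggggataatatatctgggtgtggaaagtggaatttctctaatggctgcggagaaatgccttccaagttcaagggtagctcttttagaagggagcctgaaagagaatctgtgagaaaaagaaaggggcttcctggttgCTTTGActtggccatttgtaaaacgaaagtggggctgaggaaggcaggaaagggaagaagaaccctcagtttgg
Gm5089: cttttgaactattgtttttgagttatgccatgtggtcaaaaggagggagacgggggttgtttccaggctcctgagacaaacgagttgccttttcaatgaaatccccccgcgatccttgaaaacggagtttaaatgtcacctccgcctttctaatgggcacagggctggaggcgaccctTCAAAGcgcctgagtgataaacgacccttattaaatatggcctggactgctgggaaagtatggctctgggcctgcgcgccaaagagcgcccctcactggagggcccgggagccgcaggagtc
Neither of the female-private windows held any of these letters, the Kcne3 window held a TEAD and a half-site match, and the Chd7 and Gm5089 windows each held 1 TCF/LEF match. Their GC content ran from 45.7% in the Chd7 window to 55.7% in the Plxna1 window. Over all distal windows these letters were about as frequent on both sides, and near a TSS some of them were not, as given below. The 5 windows show what such regions look like and not a difference between the sides.

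How the 4 lists shared regions was counted next. The largest set, 15032 regions or 30.8%, was called in all 4 lists, and the next largest, 13050 regions or 26.7%, in Ma_1007 alone. The Ma_1007 list was the longest, with 40824 autosomal peaks against 27994 in Ma_1014, 28485 in Ma_1039 and 25115 in Ma_1181. The female lists averaged 28240 ± 347 peaks and the male lists 32970 ± 11108 (SD, n = 2 each), a difference within the spread between male lines (exact permutation test, two-sided, p = 1.00, where 6 assignments allow no p below 0.333). Covered length, at 44.9 and 44.9 Mb in the female and 66.2 and 39.9 Mb in the male lists, and median peak width, at 1188 and 1109 bp against 1161.5 and 1185 bp, did not separate the sides either (exact p = 1.00 each, two-sided).

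Pairs that crossed the sexes shared fewer regions with each other alone than pairs of the same sex. Such regions numbered 936 for Ma_1014 with Ma_1007, 1687 for Ma_1039 with Ma_1007, 257 for Ma_1014 with Ma_1181 and 146 for Ma_1039 with Ma_1181, against the 1999 and 2682 private to a side. When each list was reduced to its 25115 strongest peaks by −log10 q, the order of the sides turned. Of 37666 regions, 2517 (6.68%) were then female-private and 1884 (5.0%) male-private. Crossed pairs held 394, 936, 514 and 347 regions in the same order as above. The cut dropped 15709 peaks of Ma_1007, down to a −log10 q of 25.5, but only 2879 of Ma_1014 and 3370 of Ma_1039, both down to 10.1, and none of Ma_1181. Which side had more private regions thus depended on list length, and membership moved with it. Between the settings, 72.8% of the female-private regions of the full lists overlapped 57.8% of those of the equal lists, and 56.3% of the male-private regions of the full lists overlapped 80.1%. With a list left out, a single list calls its side. The female count was then 3324 without Ma_1014, 4661 without Ma_1039, 6081 without Ma_1007 and 2731 without Ma_1181, and the male count 5800 without Ma_1007, 16000 without Ma_1181, 3451 without Ma_1014 and 3836 without Ma_1039.

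**Figure D1:**
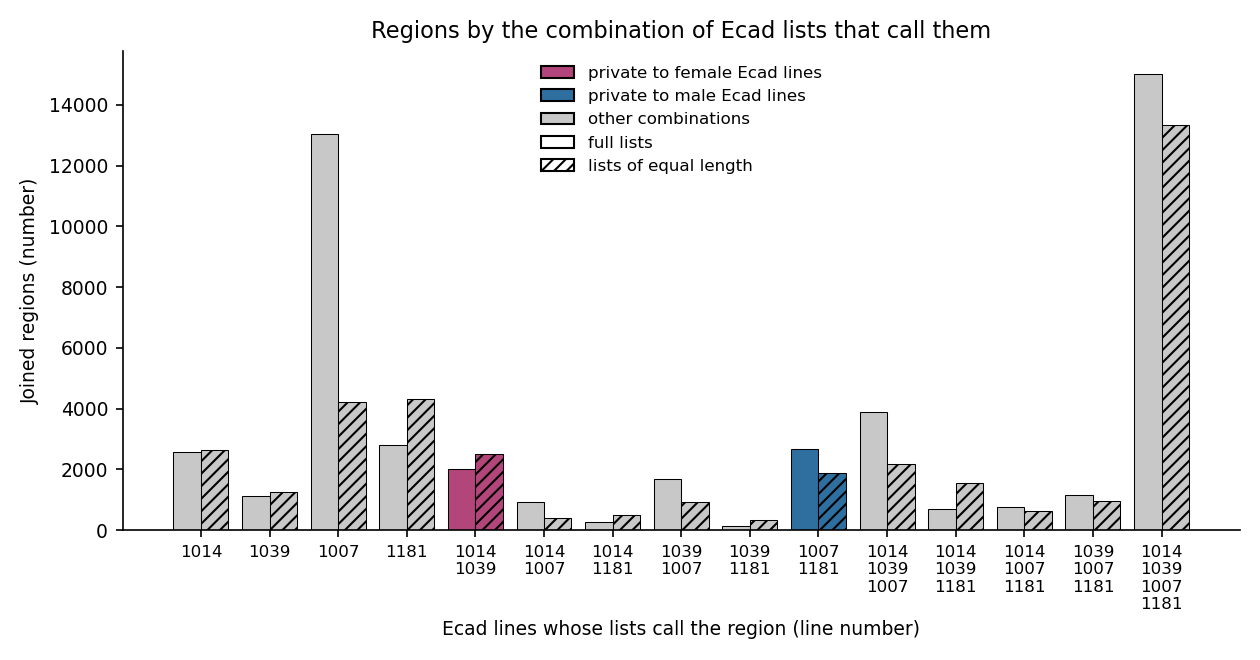
Number of joined autosomal regions (vertical axis) for each combination of Ecad lists that call them (horizontal axis, line numbers), in full lists (plain bars) and in lists of 25115 peaks (hatched bars). Regions private to the female lines number 1999 and 2517, and regions private to the male lines 2682 and 1884.

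Private regions were weaker and narrower than regions called in all 4 lists. The rule bears on both traits. A region of all 4 lists joins peaks of more lists, and a private region must be missed by both lists of a side. How much of the difference comes from the rule was not tested. Within-list percentiles rank each peak by −log10 q from 0 to 100. Female-private regions had a median percentile of 37.6 in Ma_1014 and 28.5 in Ma_1039, and male-private regions 42.6 in Ma_1007 and 29.2 in Ma_1181. Regions of all 4 lists had medians from 65.9 in Ma_1181 to 77.5 in Ma_1007. The lists end at a −log10 q of about 5, and peaks below 10 made up 10.8% of female-private regions in Ma_1014, 18.8% in Ma_1039, and 7.42% and 14.8% of male-private regions in Ma_1007 and Ma_1181. Those are the members closest to the limit of detection. By the joining rule no private region can touch a peak of the other side. Within 1 kb of such a peak lay 108 female-private (5.40%) and 143 male-private regions (5.33%), and the median gap was 10628 bp and 18730 bp. The same share for other regions was not counted.

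The sides had like widths. Female-private regions had a median width of 1172 bp (quartiles 808 and 1567.5, range 262 to 7720 bp) and male-private regions of 1163.5 bp (730 and 1784.5, range 276 to 9445 bp). Regions of all 4 lists measured 2303 bp. In lists of equal length the medians were 1307 bp on the female and 1486 bp on the male side, with order-statistic 95% intervals of 1285 to 1335 and 1443 to 1527 bp. Regions are not replicates, and these intervals cover counting error alone.

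Distance to the nearest TSS differed between the sides in full lists and in lists of equal length, though not without Ma_1181, where 18.4% and 18.5% lay within 1 kb. Of the female-private regions, 333 or 16.7% (Wilson 95% interval 15.1 to 18.4%) lay within 1 kb of a GENCODE TSS, and of the male-private regions 996 or 37.1% (35.3 to 39.0%). All joined regions stood between them at 30.1%, and regions called in all 4 lists were highest at 54.4%. Regions are not replicates, so the Wilson intervals too cover counting error alone and not the spread between lines. In lists of equal length the shares were 16.6% and 42.6%. Female-private regions instead filled the band from 1 to 10 kb, with 42.6% of them against 25.3% of the male-private regions. From 10 to 100 kb the shares were 37.1% and 34.9%. By gene models, 26.7% of female-private regions touched an exon, 42.1% lay in introns and 31.2% between genes. For male-private regions these shares were 39.1%, 36.8% and 24.1%.

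**Figure D2:**
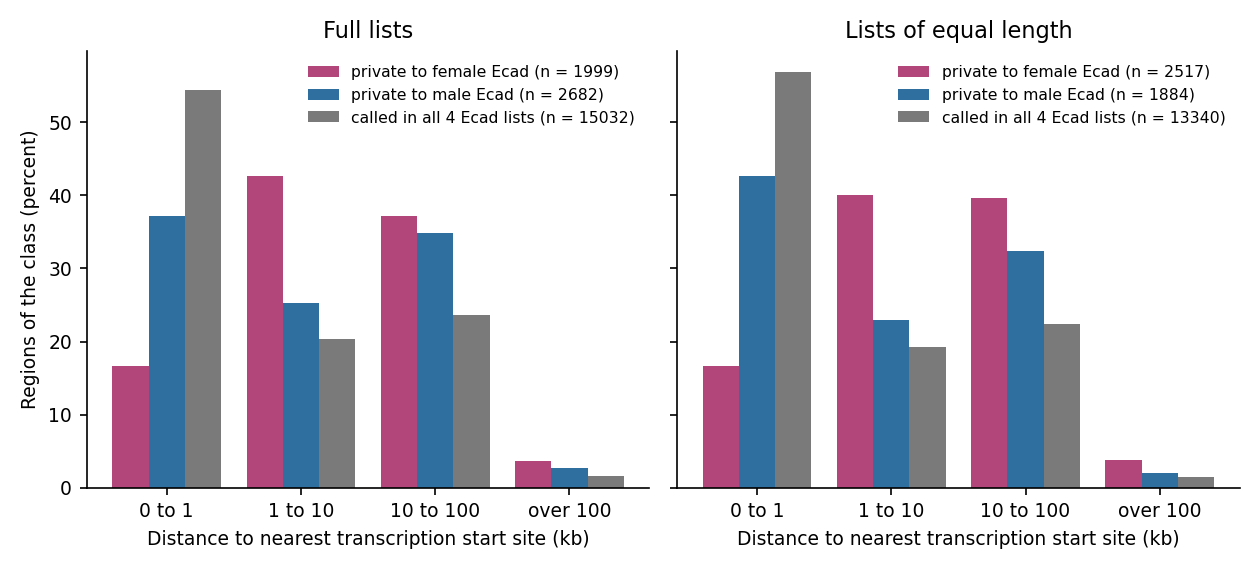
Share of regions (vertical axis, percent) by distance to the nearest TSS (horizontal axis, kb) for female-private, male-private and all-4-list regions, in full lists (left) and lists of equal length (right). Within 1 kb lie 16.7% of female-private and 37.1% of male-private regions in full lists, and 16.6% and 42.6% in lists of equal length.

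The share near a TSS was read in every other combination of lists too. In regions of a single list it was 15.2% for Ma_1014, 14.8% for Ma_1039, 14.6% for Ma_1007 and 16% for Ma_1181, close to the female-private value. It was high where both male lists took part: 37.1% for the male pair, 57.0% for the male pair with Ma_1014 and 35.8% with Ma_1039. With both female lists and a single male list it was 19.2% (Ma_1007) or 22.5% (Ma_1181). Leaving out a male list left its side to a single list. Without Ma_1181 the shares were 18.4% (female) and 18.5% (male), so the contrast was lost, and without Ma_1007 they were 18.1% and 26.2%. Of 20807 autosomal protein-coding genes, 42.3% had a called promoter in Ma_1014 and 41.2% in Ma_1039, against 50% in Ma_1007 and 44.9% in Ma_1181. Both male lists thus called more promoters than both female lists, Ma_1181 with fewer peaks than either of them.

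Base composition differed where the regions met a TSS. At a TSS the 300 bp summit windows of male-private regions had a median GC content of 62.0% and those of female-private regions 49%, with 58.3% in regions of all 4 lists. Away from a TSS the medians were 45.3% on both sides and 45.7% in all 4 lists. Soft-masked repeats took 16.3% of female-private and 7.88% of male-private TSS windows on average, and 19.5% and 17.3% of distal ones. Equal lists gave 63.0% and 48.7% GC at a TSS.

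Motif letters were spread alike over the distal windows, 1666 female-private and 1686 male-private. MITF letters were in 7.56% of female-private, 7.0% of male-private and 7.61% of all-4-list windows. SOX letters, the core bound by SOX10, were in 29.7%, 29.3% and 27.6%. TCF/LEF letters were in 22.0%, 23.8% and 22.3% in full lists, and in 22.1%, 20.3% and 22.6% in equal lists, where the order of the sides was the opposite. In distal windows the lineage factors of melanocytes thus had their letters on both sides at about the level of the shared regions. AP-1 letters were in 5.76%, 5.46% and 5.04%, TEAD letters in 16.2%, 17.7% and 17.0%, and the half-site in 16.9%, 18.9% and 18.7%. Over all 34104 distal windows the shares were 6.43% for AP-1, 7.91% for MITF, 29.0% for SOX, 16.8% for TEAD, 22.8% for TCF/LEF and 18.4% for the half-site. Near a TSS there were 333 female-private and 996 male-private windows. There SOX letters were in 23.7%, 16.9% and, in all-4-list windows, 16.7%. MITF letters were in 6.61%, 3.61% and 4.88%, and TCF/LEF letters in 16.5%, 12.8% and 13.1%. AP-1 letters had the opposite order of the sides, at 2.10%, 3.61% and 3.01%. TEAD letters were in 13.8%, 11.9% and 12.3%, and the half-site in 14.7%, 14.6% and 14.1%. Matches to different motifs can share bases at their ends (CTTTGA and TGACCT, the half-site on the other strand, share TGA), and a match is a description and not a binding site.

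Private regions lay on every autosome, unevenly. Female-private regions took from 2.07% of the regions of chromosome 19 to 6.26% of those of chromosome 5. Male-private regions took from 4.09% on chromosome 15 to 8.28% on chromosome 12. Chromosome 19 was low for the female and high for the male side (7.01%), and chromosome 5 the reverse (4.20% male-private). In equal lists chromosome 5 was again highest for the female side (9.27%) and lowest for the male side (3.17%), and chromosome 19 lowest for the female (4.43%) and highest for the male side (7.82%). Copy number was not measured, and its part in these shares was not tested.

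**Figure D3:**
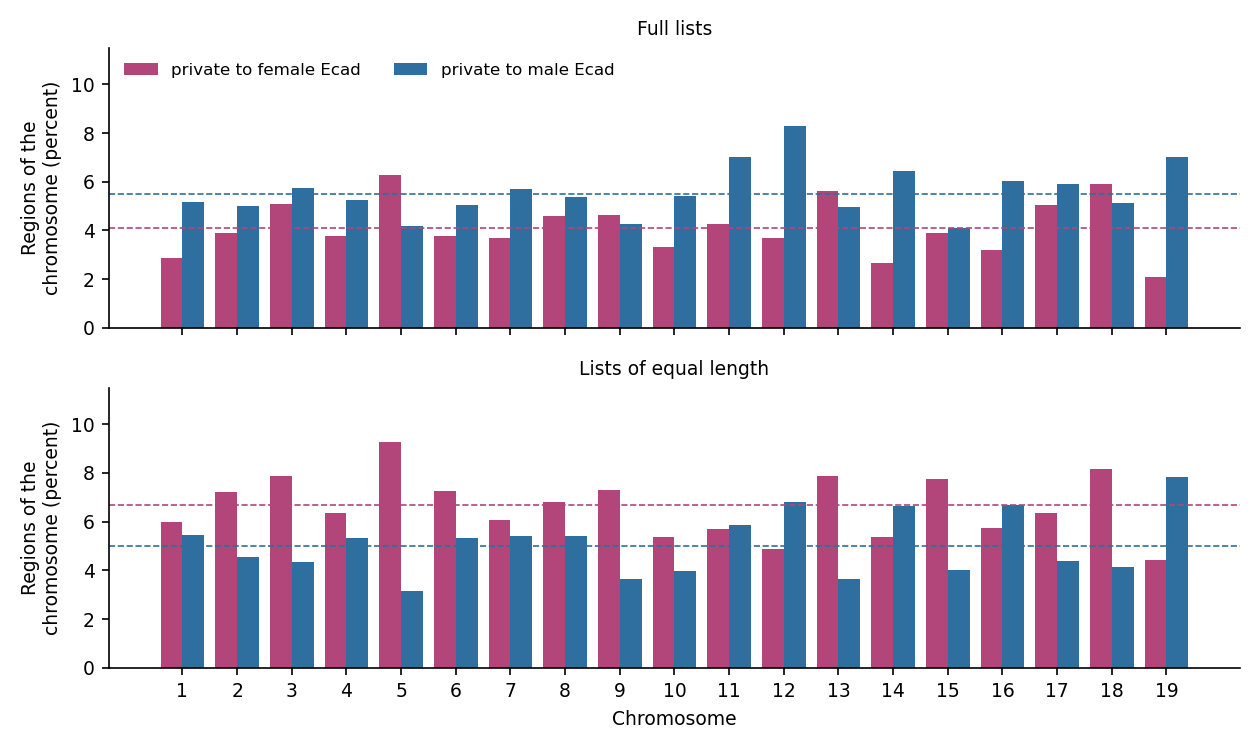
Share of the joined regions of each autosome (vertical axis, percent) that is private to the female or the male Ecad lines, in full lists (top) and lists of equal length (bottom), with the share over all autosomes as a dashed line for each side. Chromosome 5 is highest for female-private regions in both panels, at 6.26% and 9.27%.

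Most private regions stood alone among neighbours of other classes, 1573 of the female (78.7%) and 2068 of the male side (77.1%). Stretches of at least 3 neighbouring private regions with no other region between them numbered 31 and 56. The longest female stretches held 6 regions. The first spanned 39.7 kb of Atp11a, a phospholipid flippase (chr8:12804472-12844208), and the other 1644 kb around Lingo2 on chromosome 4, a stretch with few peaks of any list. The longest male stretches held 5 regions. They lay at Pmepa1, an inhibitor of TGF-β signalling (chr2:173263252-173337286, 74.0 kb), between Ube2u and Cachd1 on chromosome 4 (198 kb), at the kinase gene Akt2 on chromosome 7 (16.3 kb) and at Nrxn3 on chromosome 12 (85.5 kb). In equal lists the Atp11a stretch held 8 regions.

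The strongest female-private regions, ranked by the mean of their percentiles in the female lists, ran from 96.4 to 87.5 over the first 10. The first, at chr6:89270472-89274437, had a −log10 q of 342 in Ma_1014 and 267 in Ma_1039 and covered the start of the uncharacterised gene 4930512J16Rik. The nearest protein-coding TSS, 46652 bp away, was that of Plxna1, a semaphorin receptor. The second was intergenic, with 443 and 148, and lay 102886 bp from the TSS of Cdh13, the membrane-anchored T-cadherin. The third was in an intron of Tmc7, a transmembrane channel-like gene, with 243 and 174. All 3 were also called in the male ΔEcad line Ma_1456, with values of 160, 12.2 and 202.

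The remaining female regions of the first 10 lay at genes of varied function. They lay 1542 bp from the TSS of Grin2b, an NMDA receptor subunit (186 in Ma_1014 and 153 in Ma_1039), on the TSS of Mill2, a class I MHC-like gene (179 and 158), on that of the olfactory receptor Olfr95 (136 and 177), and 15620 bp from Fzd7, a Wnt receptor (162 and 142). The region at Shq1, a factor of ribonucleoprotein assembly, lay 167515 bp from its TSS (237 and 104), and that on Atp11a had values of 225 and 108. Mill2, Olfr95 and the vomeronasal receptor V1rd19 belong to gene families with close copies, and how reads that match several copies were handled is not given in the sources used here, so these calls are uncertain. Of these 10 regions 4 had a protein-coding TSS within 1 kb, and all 10 were private in the equal lists too.

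Ranked among regions with a protein-coding TSS within 1 kb, the first 10 of the female side ran from 89.4 down to 80.1. Beside Mill2, Hoxb3, Olfr95, Atp11a and V1rd19 (188 and 99.8) they held Prickle2, a planar cell polarity gene (118 in Ma_1014 and 148 in Ma_1039), Espn, an actin-bundling protein (219 and 80.8), the peroxidase Gpx7 (91.0 and 121) and Hoxb2 (118 and 91.4). The remaining one lay 996 bp from a TSS of Mest, a gene expressed from the paternal copy (173 and 82.9). Mest itself was no private promoter, because a peak over another of its starts was called in Ma_1181 at a −log10 q of 41.4, beside 1581 in Ma_1014 and 446 in Ma_1039. Atp11a was no private promoter in the full lists either. A peak near another of its starts was called in Ma_1007 at a −log10 q of 24.8.

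The strongest male-private regions ran from 97.4 to 89.7. The first lay in Kcne3, a potassium channel subunit, at chr7:100179511-100184015, with a −log10 q of 460 in Ma_1007 and 919 in Ma_1181. The next, at chr4:8909244-8915985, was intergenic, 54013 bp from the TSS of Chd7, a chromatin remodeller needed for neural crest formation (729 and 459). The third covered the start of the predicted gene Gm5089 on chromosome 14 (393 and 600). They were followed by a start of Ptprg, a receptor tyrosine phosphatase (379 and 348), a region 14851 bp from Bahcc1 (373 and 316), and one 949334 bp from the nearest protein-coding gene, Gcfc2 (384 and 289). Regions at Pxdn, which crosslinks collagen IV (239 and 467), Dact2, a modulator of Wnt signalling (235 and 471), Zbtb10 (547 and 220) and the transporter Slc38a10 (338 and 239) completed the 10. The widest, near Zbtb10, measured 9445 bp, against 4099 bp for the widest of the female 10. All 10 were private in the equal lists too.

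Among male-private regions with a protein-coding TSS within 1 kb, the first 10 held Kcne3, Gm5089, Ptprg and Dact2, then Acvrl1, a receptor of the TGF-β family (227 in Ma_1007 and 316 in Ma_1181), Kank1, an adaptor of focal adhesions (190 and 368), Lef1 (225 and 242), Tcf7 (188 and 291), the channel regulator Unc79 (287 and 170) and the insulin receptor Insr (175 and 211). Dact2, Lef1 and Tcf7 all act in Wnt signalling, the latter pair as the DNA-binding partners of β-catenin. They were named by the rank of their regions and not for their role. Kcne3 itself was no private promoter, because in Ma_1007 no peak lay within 1 kb of its TSS.

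Several genes had many private regions. Each region was given to the nearest protein-coding TSS, which named 1579 genes on the female and 1959 on the male side. Of these, 228 were on both (14.4% of the female and 11.6% of the male genes), and 1281 and 1534 had 1 region only. Atp11a led the female side with 7 of its 10 regions. Fmn1, a formin (6 of 32), Lingo2 (6 of 9) and Macrod2 (6 of 31) followed, and Coro1c, Eci2, Exoc4, Lrrk1, Myo10 and Pik3c3 had 5 each. Myo10, a myosin of filopodia, had 9 in the equal lists.

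Ptprg led the male side with 12 of its 29 regions over 611 kb. Pmepa1 had 9 of 14, Rapgef5, an activator of the small GTPase RAP, 8 of 32, and Adgrl3, Frmd4b, Thsd4 and the netrin receptor gene Unc5c 7 each. Calls in the ΔEcad lists varied between these genes. In Ma_1057, Ma_1064, Ma_1069, Ma_1062 and Ma_1456, in this order, Unc5c regions were called 6, 3, 6, 2 and 3 times. Ptprg regions were called 6, 7, 3, 4 and 3 times, but those of Pmepa1 only 1, 1, 0, 0 and 1 times. The Frmd4b regions were called 0, 2, 1, 1 and 0 times. On the female side the 7 Atp11a regions were called 3 times in Ma_1456 and in no other ΔEcad list, while Myo10 regions were called 1 time in each of the 5. Over all joined regions the ΔEcad lists called 31.2 to 47.3%.

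At the level of genes, a promoter was private when both lists of a side and neither of the other had a peak within 1 kb of any TSS of the gene. Of 20807 genes, 115 (0.553%) were private to the female and 742 (3.57%) to the male lines, beside 7609 (36.6%) called in all 4 lists. In equal lists there were 147 (0.706%) and 654 (3.14%), with 98 female and 517 male genes in both settings. The male excess thus held in both, unlike that of the regions. Leaving out a list gave 145 female-private promoters without Ma_1014, 260 without Ma_1039, 443 without Ma_1007 and 194 without Ma_1181. The male numbers were 1122 without Ma_1014, 1047 without Ma_1039, 922 without Ma_1007 and 1573 without Ma_1181.

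Among 14 β-catenin target genes, 5 were male-private, 0 were female-private, 3 (Axin2, Myc and Ccnd1) were called in all 4 lists and 5 in none. The 5 were Nkd1 and Sp5, a feedback inhibitor and a transcription factor of the Wnt pathway, Lef1, Tcf7 and the stem cell receptor Lgr5. The share over all genes was 3.57%. By list, 3 of the 14 were called in each female and 9 and 8 in the male lists Ma_1007 and Ma_1181. Peaks were of unequal strength: at Sp5 the −log10 q was 9.47 in Ma_1007 and 230 in Ma_1181, at Lgr5 it was 31.7 and 533, and at Nkd1 58.6 and 46.1. The Lgr5 peaks lay at annotated starts in the distal part of the gene (chr10:115454882-115461385 in Ma_1181) and not at the 5′ end near 115587780. Sp5 was not private in the equal lists, where the other 4 were. In the ΔEcad lists 8, 7 and 9 of the 14 were called in Ma_1057, Ma_1064 and Ma_1069 (female), and 4 in each male line. Over all genes, 42.3% and 41.2% of promoters were called in the female and 50% and 44.9% in the male Ecad lists, 31.2%, 34.7% and 26.3% in the female and 39.7% and 40.5% in the male ΔEcad lists.

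Among 39 Hox genes, which set position along the body axis, 4 were female-private (Hoxb2, Hoxb3, Hoxb4 and Hoxb9) in full and equal lists alike, Hoxa3 was among the male-private ones, and 31 were called in no Ecad list. The background shares were 0.553% and 3.57%. Neighbours share peaks, so these genes are not independent. The Hoxb2 peak measured 6092 bp in Ma_1014 and 7720 bp in Ma_1039, and 5789 bp in Ma_1456, the only ΔEcad line with peaks at Hoxb2, Hoxb3 and Hoxb4. The Hoxb9 promoter peak was 10111 bp wide in Ma_1014 (−log10 q 273) and 1228 bp in Ma_1039 (29.3). Hoxa3 was at 84.9 in Ma_1007 and 15.2 in Ma_1181, and at 7.43 in Ma_1069.

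Melanoma gene lists were read beside the shares over all genes, 0.553% female-private and 3.57% male-private. Of 19 pigment and melanocyte genes, 14 were called in all 4 lists and only Oca2, a melanosomal transporter, was private, to the female side (138 in Ma_1014 and 99.8 in Ma_1039). In equal lists Tyrp1 joined it. Of 20 invasive state genes only Zeb1, an EMT factor, was private, to the male side (97.0 in Ma_1007 and 13 in Ma_1181). There were 0 private promoters among 19 neural crest and EMT factors, 16 RAS-MAPK feedback genes, 20 cadherins and protocadherins, and 17 cell cycle and tumour suppressor genes.

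Lists tied to sex hormones and gonads were read beside the same shares, 0.553% and 3.57%, which already differ between the sides. Of 16 oestrogen receptor and response genes, 0 were female-private and 1 was male-private, the pioneer factor Foxa1 (21.8 in Ma_1007 and 20.3 in Ma_1181), which was not private in equal lists. The oestrogen receptor gene Esr1 was called in Ma_1007 alone of the Ecad lists. Of 10 other steroid response genes 0 were private in full lists, and in equal lists Sgk1 was male-private. Of 19 autosomal genes of gonadal sex determination, 0 were female-private and 3 were male-private, Cbx2 (16.1 in Ma_1007 and 22.8 in Ma_1181), Six4 (126 and 9.66) and Zfpm2 (51.8 and 26.1), with Runx1 in place of Cbx2 in equal lists. The testis factors Sox9 and Fgf9 were called in Ma_1007 alone. Of 19 interferon and MHC class I genes, Isg15 was female-private (14.7 in Ma_1014 and 12.4 in Ma_1039) and Irf1 male-private (35.1 in Ma_1007 and 23.1 in Ma_1181), and in equal lists Bst2 was female-private as well.

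**Figure D4:**
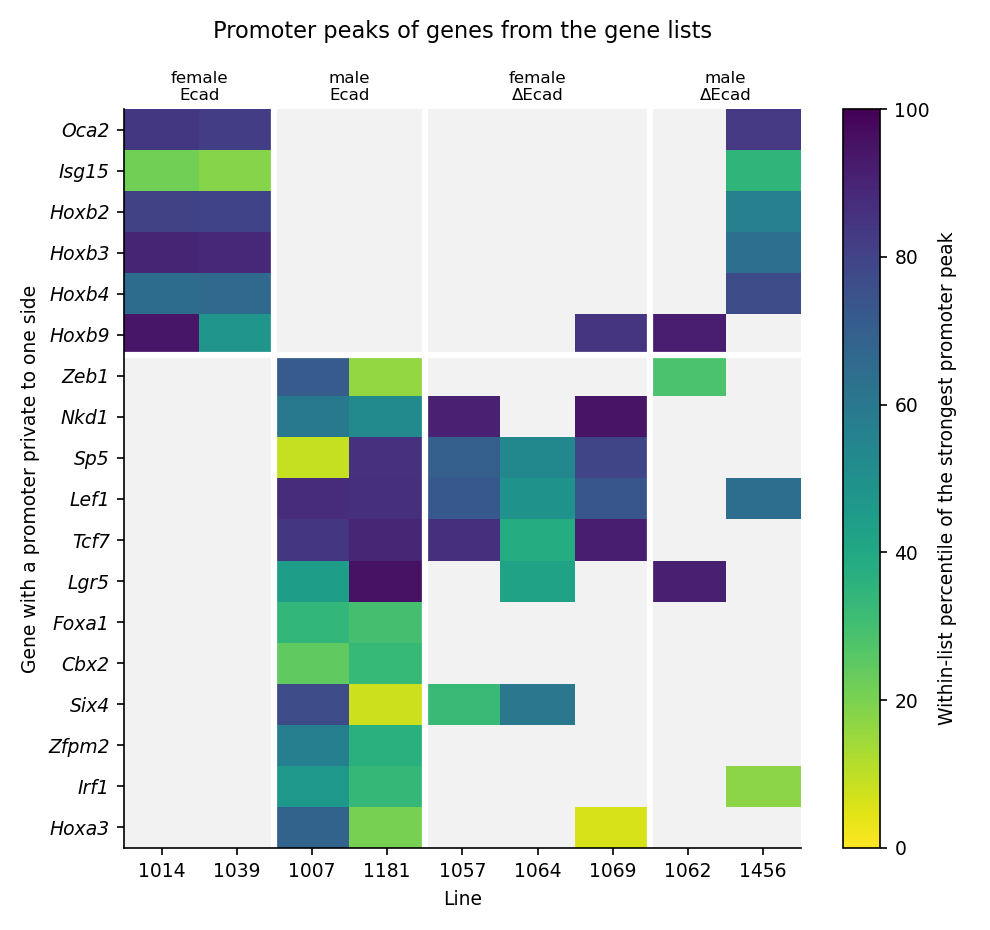
Within-list percentile (colour, 0 to 100) of the strongest promoter peak for genes of the gene lists named in the text as private to a side of the Ecad lines (rows), in all 9 lists (columns, line numbers by group). Pale grey marks a promoter with no peak. Lef1 and Tcf7 are filled in both male Ecad and all 3 female ΔEcad lists (Lef1 also in Ma_1456), and Hoxb2, Hoxb3 and Hoxb4 in both female Ecad lists and Ma_1456.

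The 5 ΔEcad lists, which had no part in choosing the regions, were used to ask whether private regions followed sex when E-cadherin is lost. Female-private regions were called at 12.5% in Ma_1057, 18% in Ma_1064 and 9.80% in Ma_1069, the female ΔEcad lines, and at 24.8% in Ma_1062 and 40.1% in Ma_1456, the male ones. All 3 female lines were below both male lines. That order was not particular to female-private regions. Regions called in all 4 Ecad lists were found at 66.0 to 81.7% in the female and at 89.3 and 85.6% in the male ΔEcad lists. Over all joined regions the shares overlapped, at 31.2 to 46.1% against 42.2 and 47.3%. For the female-private regions the test was as follows. The means were 13.4 ± 4.16% (SD, n = 3) and 32.4 ± 10.8% (SD, n = 2), a difference of −19.0 points (exact permutation test, two-sided, p = 0.1, adjusted 0.150 over 3 values). With 10 assignments no p can go below 0.1, so the test could not have passed the usual threshold. Without Ma_1007 the difference was −13.5 points, with an exact permutation p of 0.3 that is no longer the smallest possible. The difference was −11.6 without Ma_1039 and −11.4 without Ma_1456.

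Male-private regions were called at 33.6%, 38.6% and 26.4% in Ma_1057, Ma_1064 and Ma_1069 (female ΔEcad), and at 28.2% and 26.5% in the male lines Ma_1062 and Ma_1456. These ranges overlapped, with means of 32.9 ± 6.12% (SD, n = 3) and 27.3 ± 1.19% (SD, n = 2) and a difference of 5.52 points (exact permutation test, two-sided, p = 0.400, adjusted 0.400). Within each list, the female-private minus the male-private share was −21.1, −20.7 and −16.6 points in the female ΔEcad lines and −3.43 and 13.6 points in the male ones. Every female ΔEcad list thus held more of the male-private than of the female-private regions, and Ma_1456 alone held more of the female-private ones. The difference between the groups was −24.5 points (exact permutation test, two-sided, p = 0.1, adjusted 0.150). It was −12.4 points without Ma_1039 (exact permutation p = 0.3) and −15.4 without Ma_1007 (exact permutation p = 0.2), both above the smallest p possible. It was −16.0 without Ma_1456, and with all 9 lists reduced to 20350 peaks it was −20.9.

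**Figure D5:**
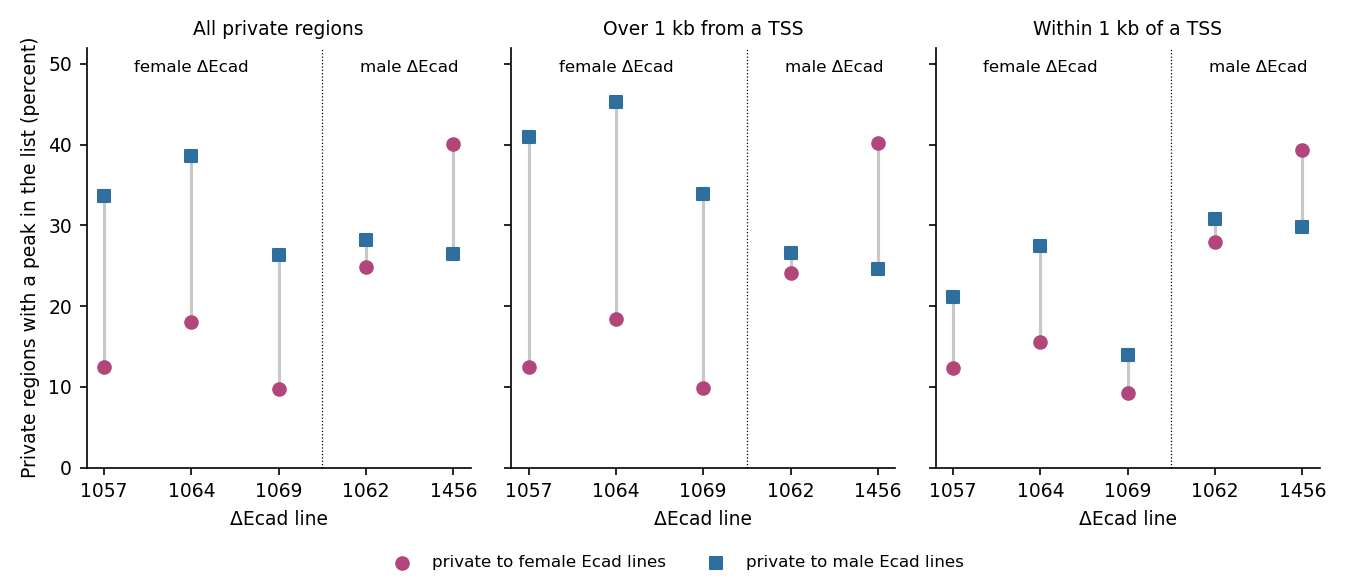
Share of private regions that hold a peak (vertical axis, percent) in each ΔEcad list (horizontal axis, line numbers; female left and male right of the dotted line), for female-private regions (circles) and male-private regions (squares), over all regions, those over 1 kb from a TSS and those within 1 kb. Over all regions the circles lie at 12.5%, 18% and 9.80% in female and at 24.8% and 40.1% in male ΔEcad lines.

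Male-private regions were then split by distance to a TSS, a split chosen after the data were seen. Differences between its classes were not tested. Over 1 kb from a TSS, male-private regions were called at 40.9%, 45.3% and 33.9% in the female ΔEcad lines and at 26.6% and 24.6% in the male ones, without overlap. Within 1 kb of a TSS the order was the opposite, at 21.2%, 27.4% and 13.9% against 30.8% and 29.8%. Promoter calls were fewer in the female ΔEcad lists in general, 31.2%, 34.7% and 26.3% of all genes against 39.7% and 40.5%, and the part of this in the TSS values was not tested. Female-private regions were called less in female ΔEcad lists in both classes, at 9.90 to 18.4% against 24.1 and 40.2% distally, and at 9.31 to 15.6% against 27.9 and 39.3% near a TSS. Regions called in all 4 Ecad lists were found at 66.0 to 81.7% in the female and at 89.3 and 85.6% in the male ΔEcad lists, and all joined regions at 31.2 to 46.1% and at 42.2 and 47.3%.

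Single regions gave these values. Of the 10 strongest female-private regions, all 10 were called in a male ΔEcad list and 1 in a female one, with 12 of 20 possible calls in male and 1 of 30 in female lists. Of the 10 strongest male-private regions, all 10 were called in a female ΔEcad list, with 24 of 30 possible calls, and 8 in a male one, with 13 of 20. All joined regions were called at 31.2 to 46.1% in single female and at 42.2 and 47.3% in male ΔEcad lists. Regions of all 4 Ecad lists were called at 66.0 to 81.7% and at 89.3 and 85.6%. Whether so few regions differ from these shares was not tested. Chd7, Pxdn, Dact2 and Zbtb10 regions were called in all 5 ΔEcad lists. The Zbtb10 region had a −log10 q of 224 in Ma_1057, 185 in Ma_1064 and 120 in Ma_1069, and of 58.2 and 12.3 in Ma_1062 and Ma_1456. The Tcf7 region was called at 81.8, 16.9 and 91.9 in the female ΔEcad lines and in neither male one, and the Lef1 region at 44.0, 22.2 and 40.0, and at 30.6 in Ma_1456.

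Many private regions were seen in no ΔEcad list at all, 793 of the female (39.7%) and 880 of the male ones (32.8%), against 2.10% of regions called in all 4 Ecad lists. The latter were also the stronger regions. Each ΔEcad list called only 31.2 to 47.3% of all joined regions, and the share of these seen in no list was not counted. A pattern that follows sex, called in all 3 female and no male ΔEcad list, was shown by 17 female-private regions (0.850%). The opposite, both male and no female ΔEcad list, was shown by 103 (5.15%). For male-private regions the pattern of their own sex, both male and no female ΔEcad list, was shown by 79 (2.95%), and the opposite by 200 (7.46%). Among regions of all 4 Ecad lists, 0.599% had the female and 5.13% the male pattern. The female-private shares were close to these values. Of the male-private regions, 7.46% against 0.599% had the female pattern and 2.95% against 5.13% the male pattern. Regions of all 4 Ecad lists are an unlike background, however. Of them 54.0% were called in all 5 ΔEcad lists, against 0.800% of female-private and 2.42% of male-private regions. No pattern share was therefore read as a property of the private regions.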

How the data were processed

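H3K27ac ChIP-seq was done on 9 mouse melanoma lines with 1 list each. The authors aligned paired-end reads to GRCm38/mm10 with Bowtie2, and the submitters' processing notes name Bowtie2 2.4.5, MACS2 2.2.7.1 (the columns of the lists are those of its narrowPeak format) and deepTools 3.5.1.0.0. Each deposited list gives, per peak, an integer score, the fold enrichment as a ratio over background, and −log10 p and −log10 q values, with no read counts, so the depth behind a list is unknown. The handling of inputs, duplicates and multi-mapping reads is not given in the sources used here.

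Autosomal peaks were joined where they overlapped or touched (Python 3.11.15, numpy 2.4.6, pandas 2.3.3). Distances are from the region's edge to the nearest of all GENCODE M21 starts, 0 where it covers one. Percentiles rank −log10 q within a list. Nearest genes are protein-coding. Named genes were the nearest genes of the 10 highest-ranked private regions per side, of the 10 highest with a start within 1 kb, the 5 genes with most private regions (with ties) and private members of 12 gene lists. Groups were compared by exact permutation tests, two-sided. Members and lists were chosen with earlier results of these data known. Sequence came from GRCm38.p6, whose chromosome lengths hold all peaks (samtools 1.23.1). Alternatives were list length, peak threshold and width, covering share, joining distance, TSS window, gene type and leaving out each line. The joining steps were tested on simulated lists. P-values measure the spread between lines. Input libraries, X and Y (except for the label check) were not analysed here. A few items that the naming rule or the sequence rule would show are not reported here.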

Additional observations from a re-analysis of the deposited data

Results flagged for a closer look

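The difference between female-private and male-private shares was flagged because it differed between the female and male ΔEcad lists. In the Ecad lines its direction is set by the rule, which chose regions that favour each line's own sex. In the ΔEcad lines the female-private minus male-private share was lower in all 3 female than in both male lists, by a mean of −24.5 points. The difference between genotypes was not tested, since the rule fixes the Ecad values.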

How the results depend on the processing

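Of 153 alternative values, 109 kept their direction and their side of the threshold (or, with no test, moved within the set limits), which does not mean that they stayed close to the reported value, 40 moved and 4 reversed; the cause was not tested. In equal lists the male TSS share was 42.6% and the median widths 1307 bp (female) and 1486 bp (male). With a −log10 q of at least 10 they were 41.5%, 1295 bp and 1269 bp, and with peaks of at least 500 bp 45.9%, 1363.5 bp and 1396 bp. Where peaks had to cover 50% of a region, the male side had 1734 regions, 42.4% near a TSS and a median of 992 bp. Joining peaks up to 1000 bp apart gave 1218.5 and 1263 bp. The female TSS share was 13.4% within 500 bp, 26.8% within 2500 bp (male 41.9%) and 12.5% for protein-coding starts (male 33.4%). With only regions near a TSS, an alternative chosen after seeing the data, the male-private difference between ΔEcad groups reversed to −9.50 points.

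Leaving out a line gave 2731 to 6081 female-private and 3451 to 16000 male-private regions, the last without Ma_1181. TSS shares were 15.5 to 18.4% and 18.5 to 41.4%, median widths 636.5 to 1270 bp and 673 to 1288 bp, and private promoters 145 to 443 and 922 to 1573 (female and male). The ΔEcad differences ran from −26.7 to −11.4 points for female-private regions, from 0.826 to 8.74 for male-private regions and from −33.0 to −12.4 between them. The female minus male peak number ran from −12584 to 3124 and covered length from −21.32 to 5.006 Mb, both reversed without Ma_1007, and median peak width from −64.25 to 14.75 bp, reversed without Ma_1039.

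No paired analysis was possible because the labels give the lines no shared replicate numbers. Depth is unknown, so a missing peak can be a peak below detection.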
